A study of Mus musculus with 6 samples.

Results

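The core circadian clock genes Arntl, Clock, Per1, Per2, Per3, Cry1, Cry2, Nr1d1, Nr1d2 and Dbp were examined at their promoters in chromatin of mouse muscle fibres after knockdown of Yap. Their rows were taken by symbol, and all 10 had a row among the 49366 promoter windows of the series. The genes were chosen with earlier results of these data known. A window spans the 1 kb before and after each transcript start that is annotated for the gene. Openness was read by ATAC-seq, a transposase assay in which more reads mean a more open region.

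The groups were muscles given AAV6:Yap-shRNA and muscles given AAV6:LacZ-shRNA, the control, with 3 replicates each. Yap is a coactivator of transcription in the Hippo pathway, and LacZ is a bacterial gene. All mice were male C57BL/6J, 8 weeks old at injection, and the vectors went into the gastrocnemius and tibialis anterior (TA) muscles of opposite legs. Tissue was taken 28 days later, and each replicate pooled 4 gastrocnemius and 4 TA muscles, so a replicate is a pool of muscles. Nuclei were sorted for PCM1, a perinuclear protein of muscle fibre nuclei. By the study's methods, C57BL/6J mice were killed in the fed state early in the light phase unless stated otherwise. Taken at 1 part of the daily cycle, the samples cannot show rhythm. The Yap-shRNA vector was built on a plasmid with the CMV promoter, active in many cell types, and eGFP, and nuclei were chosen by PCM1. The study calls the ATAC-seq replicates independent animals, while its labels give each sample several muscles of each kind. The labels do not say which replicates of the 2 groups came from the same mice, and p-values measure the spread between these samples.

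The circadian clock is a transcriptional feedback loop that runs in nearly every cell, skeletal muscle fibres included. ARNTL (also called BMAL1) and CLOCK bind E-boxes and switch on the Per and Cry genes, whose proteins then repress them. A second loop joins the nuclear receptors NR1D1 and NR1D2 (REV-ERB alpha and beta), which repress Arntl through ROR elements (RORE), and DBP drives genes that carry a D-box. In muscle the clock times genes of glucose and lipid use.

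Window totals ran from 3326803 to 10319467 reads, and LacZ-shRNA replicates 1 and 2 were the shallowest. For every 100 window reads the LacZ-shRNA libraries held 70.4, 77.8 and 76.6 reads in peaks, against 68.8, 64.9 and 68.2 in the Yap-shRNA libraries. The window of Yap1, the targeted gene, held 12.1 to 16.7 CPM (a read count scaled for library depth with edgeR's TMM factors) in LacZ-shRNA and 12.1 to 16.5 in Yap-shRNA, and since an shRNA acts on RNA this does not measure the knockdown. The 12 muscle fibre markers summed to 221 to 300 CPM per kb in LacZ-shRNA and 226 to 266 in Yap-shRNA, and 10 of them lay above the 90th percentile of all windows. Leukocyte markers (7 of 8 with a window) summed to 34.7 to 42.8 and 41.1 to 43.0 CPM per kb, fibroblast markers (7) to 26.7 to 29.8 and 29.0 to 35.2, and endothelial markers (6) to 34.7 to 38.4 and 32.7 to 33.1. Satellite cell markers (4) summed to 34.5 to 41.1 and 36.1 to 41.5, and adipocyte markers (3) to 15.7 to 17.7 and 15.7 to 19.1. In these lists 0 markers passed edgeR's test at an adjusted p under 0.05, against 0.0223% of all windows. At an unadjusted edgeR p under 0.05 there were 2 fibroblast, 2 endothelial, 1 leukocyte and 1 satellite cell markers, against 4.9% of all windows. Of the muscle fibre and adipocyte markers there were 0. The median log2 fold change, Yap-shRNA against LacZ-shRNA, was -0.099 for muscle fibre, 0.25 for leukocyte and 0.21 for fibroblast markers. It was -0.0083 for endothelial, -0.048 for satellite cell and 0.051 for adipocyte markers, and -0.014 over all windows. The endothelial sums did not overlap, with LacZ-shRNA above. Windows with few reads had been filtered out by the authors, so 0 markers without reads was set beforehand. Accessible windows do not show that a gene is transcribed. The part of other cell types in the results below was not tested.

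The sequences of 4 member promoters are shown because each holds a match to an element through which the clock proteins act. They come from RefSeq (GRCm38.p6) and run 5′ to 3′ on the gene's strand, from 250 bases before to 50 bases after a start. Capitals mark an E-box (CACGTG) in Per1, an E′-box (CACGTT, here read on the other strand as AACGTG) followed by an E-box in Cry1, a pair of D-boxes (TTATGTAA) in Per3 and the RORE (AAN directly followed by TAGGTCA) in Arntl. The Per1 promoter lies at chr11:69098699-69098998 (+), that of Cry1 at chr10:85185005-85185304 (−), that of Per3 at chr4:151044616-151044915 (−) and that of Arntl at chr7:113207261-113207560 (+).
Per1: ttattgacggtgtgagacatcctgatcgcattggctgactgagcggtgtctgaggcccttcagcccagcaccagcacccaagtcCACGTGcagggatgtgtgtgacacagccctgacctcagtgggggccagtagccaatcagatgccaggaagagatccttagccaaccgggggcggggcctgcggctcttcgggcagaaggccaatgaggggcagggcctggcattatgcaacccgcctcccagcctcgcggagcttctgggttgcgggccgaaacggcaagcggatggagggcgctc
Cry1: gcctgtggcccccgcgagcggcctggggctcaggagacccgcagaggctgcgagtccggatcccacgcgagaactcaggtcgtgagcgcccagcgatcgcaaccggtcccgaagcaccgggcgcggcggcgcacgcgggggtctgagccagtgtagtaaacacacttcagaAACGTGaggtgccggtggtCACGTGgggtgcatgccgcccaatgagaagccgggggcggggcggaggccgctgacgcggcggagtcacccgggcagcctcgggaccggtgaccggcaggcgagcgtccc
Per3: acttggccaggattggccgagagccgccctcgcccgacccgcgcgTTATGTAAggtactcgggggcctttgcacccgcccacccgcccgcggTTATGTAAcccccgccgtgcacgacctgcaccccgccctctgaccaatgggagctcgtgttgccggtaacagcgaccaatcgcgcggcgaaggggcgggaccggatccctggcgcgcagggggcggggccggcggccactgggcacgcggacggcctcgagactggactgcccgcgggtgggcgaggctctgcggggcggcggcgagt
Arntl: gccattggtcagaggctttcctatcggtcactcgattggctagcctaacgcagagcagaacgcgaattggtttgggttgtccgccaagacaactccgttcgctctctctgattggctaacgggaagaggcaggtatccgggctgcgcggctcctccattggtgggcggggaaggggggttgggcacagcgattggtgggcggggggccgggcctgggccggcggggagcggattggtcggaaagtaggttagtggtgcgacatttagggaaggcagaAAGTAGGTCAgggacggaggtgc

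Motifs were searched on both strands in the 2001 bases around the 5′ end of each gene. The E-box was found in 4 of the 10 members (Per1, Cry1, Nr1d1 and Nr1d2) and in 22.8% of 49324 such regions of all genes. The E′-box was found in 5 (Clock, Per2, Cry1, Cry2 and Nr1d1), against 24.9% of regions. D-boxes (TTATGTAA or TTACGTAA) were found in 4 members (Per1, Per2, Per3 and Nr1d2) and in 8.19% of regions. The RORE was found in Arntl alone among the members and in 1.51% of regions. In RefSeq promoters (n = 32851, with 13 promoters of 9 members) the shares of all promoters were 7.15% for the E-box, 4.69% for the E′-box, 1.06% for the D-box and 0.219% for the RORE. Besides the member promoters shown, those of Cry2 and Nr1d1 held an E′-box. Those of Clock, Dbp and Nr1d2, and another of Arntl and of Per1, held none of these motifs.

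Nr1d2, which encodes REV-ERB beta, carried 3 E-boxes downstream of its 5′ end, at 449, 552 and 597 bases, and a D-box between the first and second. Per1 carried 2 E-boxes upstream of its annotated 5′ end, apart from the one in the promoter above. Per2 carried a D-box on each side of its 5′ end. These sites are shown with their neighbouring bases, the motif in capitals, named by their distance in bases from the annotated 5′ end. In GRCm38 the E-boxes of Nr1d2 lie at chr14:18238673-18238678, chr14:18238570-18238575 and chr14:18238525-18238530 (−) and those of Per1 at chr11:69094883-69094888 and chr11:69095067-69095072 (+). The D-boxes of Per2 lie at chr1:91459442-91459449 and chr1:91459095-91459102 (−).
Nr1d2 at 449: ccgcactggcCACGTGcacggtgtgt
Nr1d2 at 552: cgggcggagaCACGTGaggccgcggg
Nr1d2 at 597: gccggaggaaCACGTGggggcggtgc
Per1 at -334: agccagcctgCACGTGttccctacag
Per1 at -150: cccccgccctCACGTGgctctatcac
Per2 at -125: catgtgcgtcTTATGTAAagagagcgac
Per2 at 222: cgtggtcgtcTTACGTAAccggcggctc

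The TEAD motif (ACATTCC), read by the factors that Yap works through, was found in Per3, Nr1d1 and Nr1d2, against 23.9% of all regions. The glucocorticoid receptor motif (GNACA and TGTNC, 3 bases apart) was found in Nr1d2, against 3.34%, and the cAMP response element (TGACGTCA) in 0 members, against 2.63%. In Dbp none of the 7 motifs was found, which says only that these letters are not in the 2001 bases around its 5′ end. The Dbp window, with 5 annotated starts, spans 4802 bases and was not searched in full. A match is a description of the sequence and not a bound site.

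Most clock gene promoters were among the most open windows in these nuclei. Over the 6 samples the mean level of Dbp was 37.3 ± 4.70 CPM per kb of window (SD, n = 6), that of Nr1d2 32.8 ± 4.19 and that of Per1 32.7 ± 6.41. All 3 lay at the 99.8th percentile of the 49366 windows, whose median was 4.45 CPM per kb. Nr1d1 (17.9 ± 2.20), Cry2 (15.9 ± 1.62), Per2 (14.2 ± 1.68), Per3 (11.8 ± 1.23) and Arntl (10.3 ± 0.936) followed, all above the 90th percentile of 9.15.

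Cry1 (8.50 ± 0.862) lay at the 87.9th percentile, and Clock (2.34 ± 0.403) at the 13.3rd. The Clock value is low beside its promoter peak, as described below, and is not read as the level of its promoter. Of the 9 steps between neighbours in this order, the sample ranges were apart only from Per1 to Nr1d1 and from Cry1 to Clock. The other neighbours overlapped in range, although the higher gene was higher within all 6 samples in each of those pairs but Nr1d2 and Per1 (3 of 6). Without division by window length 8 of the 10 ranks changed, since windows ran from 3652 bases (Cry2) to 8096 bases (Arntl).

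**Figure D1:**
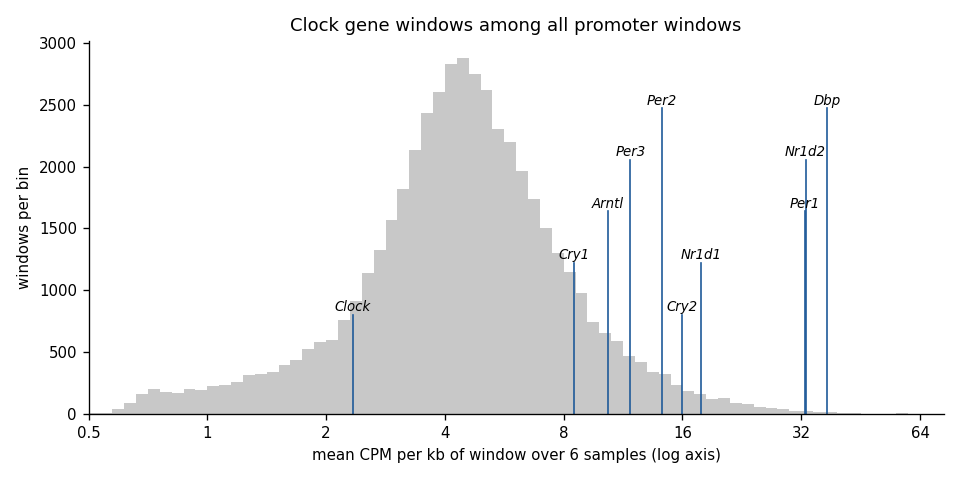
Histogram of the mean CPM per kb of all 49366 promoter windows over 6 samples (log axis), with vertical lines at the clock genes, whose heights carry no value. Clock lies in the lower tail at 2.34, although its promoter peak held more reads than this window. Dbp, Nr1d2 and Per1 lie far in the upper tail at 32.7 to 37.3.

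The low level of the Clock window was not seen in its promoter peak. The Clock window held 460 reads over the 6 samples, while the peak at its promoter (chr5:76303562-76305403, GRCm38) held 1490, or 324% of the window. In CPM per kb that peak lay at the 69.0th percentile of all peaks, while the other peak linked to Clock (chr5:76223344-76224472) lay at the 13.7th. Both the Clock window and its promoter peak overlap the window of the antisense gene Gm7467, so neither count belongs to Clock for certain. Most of that peak lies within 1 kb of the Clock 5′ end, inside the window assumed here. The window count of 460 is therefore not a sound level of the Clock promoter. Reads in the overlap with Gm7467 may have been lost, or the authors' window may differ, which was not tested. The Dbp window overlaps that of Car11, so its count and level are uncertain too. The other 8 members share their windows with no annotated gene. At Nr1d1 the promoter peak held 174% of the window reads, and it was 5109 bases wide, at the 99.7th percentile of width.

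Per1 and Dbp, in contrast, had high windows and no peak within 1 kb of a transcript start. The nearest peaks lay 5.20 and 12.2 kb from the 5′ end of Per1, and 23.4 and 34.1 kb from that of Dbp. In both genes the flanking peaks carried consecutive numbers (9038 and 9039, 35067 and 35068), so the numbering leaves no place for a further peak between them. Of the 101 windows with a mean CPM at or above that of Dbp, the lower of these genes, 21 (20.8%) had no peak within 1 kb of a start. Per1 and Dbp can thus be compared between groups near their starts by their windows alone, of which that of Dbp overlaps the Car11 window.

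The comparison between groups asked whether knockdown of Yap changed the openness of these promoters. It was made with edgeR's quasi-likelihood test over all windows, with Benjamini-Hochberg adjustment and a threshold of 0.05. Of the 10 clock windows, 0 passed, against 0.0223% of all windows (11 of 49366), and 0 passed by edgeR's likelihood-ratio test (0.0668% of all windows), DESeq2 (0.18% of the windows given an adjusted p, Clock not among them) or limma voom (0.0466%). In sorted pools, a change in the share of nuclei that are open and a change in openness per nucleus cannot be told apart. At an unadjusted p under 0.05, 1 of 10 was lower (Per1) and 0 higher, against 3.01% and 1.9% of all windows. The groups overlapped in every member. The median log2 fold change was -0.12 over the members and -0.014 over all windows, with 7 of 10 below 0 against 52.7% of all windows. Since most members are among the more open windows, the same was read over the 4035 windows at or above the lowest mean CPM of the members other than Clock (51.5 CPM). There 44.1% were below 0 and 3.59% were lower at an unadjusted p under 0.05.

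The activators of the loop came first. Arntl, the partner of Clock, held 72.7, 81.7 and 93.4 CPM in LacZ-shRNA replicates 1 to 3 and 81.3, 81.7 and 91.3 CPM in Yap-shRNA. The Yap-shRNA values lay within the LacZ-shRNA range, and the log2 fold change was 0.03 (SE 0.14, 95% interval -0.24 to 0.30, edgeR adjusted p 0.990). Its promoter peak (chr7:113206731-113208705) gave 0.12 (SE 0.12, edgeR adjusted p 0.882).

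Clock, a DNA-binding activator that also acetylates histones, held 13.2, 8.33 and 9.57 CPM in LacZ-shRNA and 8.96, 10.1 and 9.39 CPM in Yap-shRNA. LacZ-shRNA replicate 1 was above the other 5, which overlapped. The window gave a log2 fold change of -0.15 ± 0.20 (SE, adjusted p 0.967 in edgeR) and the promoter peak, with more reads, -0.12 (SE 0.13, edgeR adjusted p 0.879).

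Among the repressors, Per1, whose protein joins CRY to inhibit CLOCK and ARNTL and whose gene also answers to glucocorticoids, had the largest difference. Its window held 160, 228 and 222 CPM in LacZ-shRNA and 142, 157 and 183 CPM in Yap-shRNA. LacZ-shRNA replicates 2 and 3 lay above all Yap-shRNA samples, while replicate 1 lay among them. The log2 fold change was -0.34 (SE 0.15, 95% interval -0.64 to -0.04), with an unadjusted edgeR p of 0.029 and an adjusted p of 0.946, so it did not pass.

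The single peak linked to Per1 lies over the 3′ end of the gene, at chr11:69107375-69111809, and is 4435 bases wide. It held 105, 155 and 132 CPM in LacZ-shRNA and 82.8, 108 and 131 CPM in Yap-shRNA. The groups overlapped there too, with a log2 fold change of -0.28 ± 0.15 (SE, adjusted p 0.612 in edgeR).

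Per2, a close relative of Per1 in the repressor complex, held 50.7, 59.9 and 68.9 CPM in LacZ-shRNA and 55.2, 51.8 and 54.8 CPM in Yap-shRNA. The Yap-shRNA samples lay together inside the wider LacZ-shRNA range, and the log2 fold change was -0.16 ± 0.14 (SE, adjusted p 0.951 in edgeR). Its main promoter peak (chr1:91458527-91460018) gave -0.08 ± 0.13 (SE, adjusted p 0.937 in edgeR). Per3, the period gene least needed for rhythm, held 58.3, 75.0 and 75.9 CPM in LacZ-shRNA and 70.4, 67.2 and 78.6 CPM in Yap-shRNA. LacZ-shRNA replicate 1 was lowest and the rest were mixed, with a log2 fold change of 0.05 ± 0.14 (SE, adjusted p 0.985 in edgeR). Its promoter peak (chr4:151043933-151045648), which covers both D-boxes shown above, gave 0.09 ± 0.12 (SE, adjusted p 0.923 in edgeR).

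The cryptochromes are the main repressors of the loop. Cry1 held 45.6, 59.9 and 54.5 CPM in LacZ-shRNA and 50.3, 47.0 and 51.5 CPM in Yap-shRNA, a log2 fold change of -0.10 ± 0.14 (SE, adjusted p 0.970 in edgeR). Its promoter peak (chr10:85184349-85185829) was nearly level over the 6 samples, with an SD of 0.302 CPM in LacZ-shRNA and 1.66 CPM in Yap-shRNA, and gave 0.04. Cry2 held 47.2, 61.8 and 64.5 CPM in LacZ-shRNA and 59.0, 58.3 and 58.5 CPM in Yap-shRNA, a log2 fold change of 0.02 ± 0.14 (SE, adjusted p 0.993 in edgeR), and its promoter peak (chr2:92433401-92434643) gave -0.04 ± 0.12 (SE, adjusted p 0.974 in edgeR). The Yap-shRNA samples of Cry2 spread least of the members, with an SD of 0.346 CPM against 9.30 in LacZ-shRNA.

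Of the nuclear receptors, Nr1d1 held 61.3, 86.2 and 71.8 CPM in LacZ-shRNA and 76.1, 65.4 and 68.3 CPM in Yap-shRNA. The groups were mixed, with a log2 fold change of -0.05 ± 0.14 (SE, adjusted p 0.984 in edgeR) in the window and 0.02 in the wide promoter peak (chr11:98771117-98776225). Nr1d2 held 131, 146 and 162 CPM in LacZ-shRNA and 137, 119 and 116 CPM in Yap-shRNA. Yap-shRNA replicate 1 lay among the LacZ-shRNA samples, and the log2 fold change was -0.24 (SE 0.14, 95% interval -0.52 to 0.04, edgeR p 0.085, adjusted p 0.946).

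The Nr1d2 promoter peak (chr14:18237853-18239899), which holds the 3 E-boxes shown above, was the most open linked peak, at the 99.5th percentile of CPM per kb. It held 179, 180 and 192 CPM in LacZ-shRNA and 178, 158 and 153 CPM in Yap-shRNA. All LacZ-shRNA samples were higher here, by a margin of under 1 CPM between LacZ-shRNA replicate 1 and Yap-shRNA replicate 1. The log2 fold change was -0.17 ± 0.14 (SE, adjusted p 0.806 in edgeR), which did not pass.

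Dbp, the output activator at D-boxes, held 160, 193 and 217 CPM in LacZ-shRNA and 178, 164 and 162 CPM in Yap-shRNA. Replicate 1 of LacZ-shRNA was lowest of all 6 and the other two were highest. The log2 fold change was -0.18 ± 0.14 (SE, adjusted p 0.951 in edgeR). Over the 10 windows the 95% intervals of the fold ran from as low as 0.642 (Per1) to as high as 1.25 (Per3). These are intervals of single genes, not adjusted, from 3 pools per group, and do not exclude larger changes. Without Yap-shRNA replicate 3 the lower bound of the Per1 log2 fold change was -0.82.

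**Figure D2:**
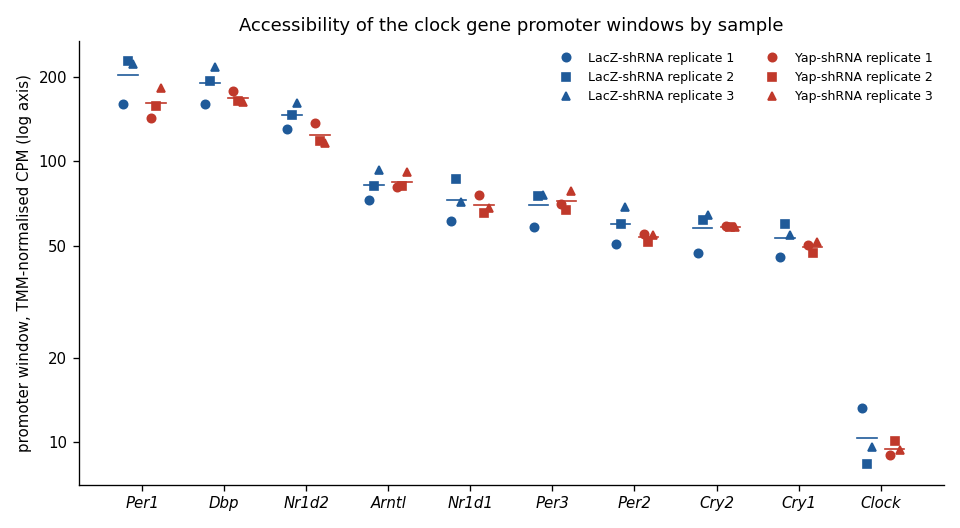
TMM-normalised CPM of the promoter window (log axis) for each clock gene, with 1 point per replicate, LacZ-shRNA in blue, Yap-shRNA in red and short lines at the group means. The groups overlap in each of the 10 genes, and LacZ-shRNA replicate 1 (blue circle) is the lowest LacZ-shRNA sample in 9 of them, Clock being the exception.

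Peaks were linked to a member when they overlapped the gene or the 10 kb on each side of it, outside the starts of other genes, or lay within 1 kb of a start of the member. There were 20, from 4 at Arntl to 0 at Dbp. Of these 0 passed the test, against 0.618% of all 36097 peaks, and 0 had an unadjusted edgeR p under 0.05, against 8.9%. Their log2 fold changes ran from -0.28 (Per1, the 3′ peak) to 0.30 (Arntl, 53.2 kb into the gene), with 9 below 0 and 11 above. The groups were apart in the Nr1d2 promoter peak, LacZ-shRNA above, and in that Arntl peak, Yap-shRNA above.

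That Arntl peak (chr7:113260325-113261013) held 10.7, 15.7 and 14.6 CPM in LacZ-shRNA and 15.8, 17.5 and 16.9 CPM in Yap-shRNA (edgeR adjusted p 0.696). Groups apart in that direction were seen in 6.55% of all peaks, and in the other direction in 6.76%. Of 39 peaks within 50 kb of a 5′ end, 0 passed and 1 had an unadjusted edgeR p under 0.05, against 0.618% and 8.9% of all peaks. That 1 peak lies 34.5 kb beyond the Dbp start (chr7:45739216-45740031) and held 9.04 to 11.2 CPM in LacZ-shRNA and 15.6 to 17.9 CPM in Yap-shRNA. All Yap-shRNA samples were higher, with a log2 fold change of 0.65 ± 0.19 (SE, adjusted p 0.130 in edgeR).

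**Figure D3:**
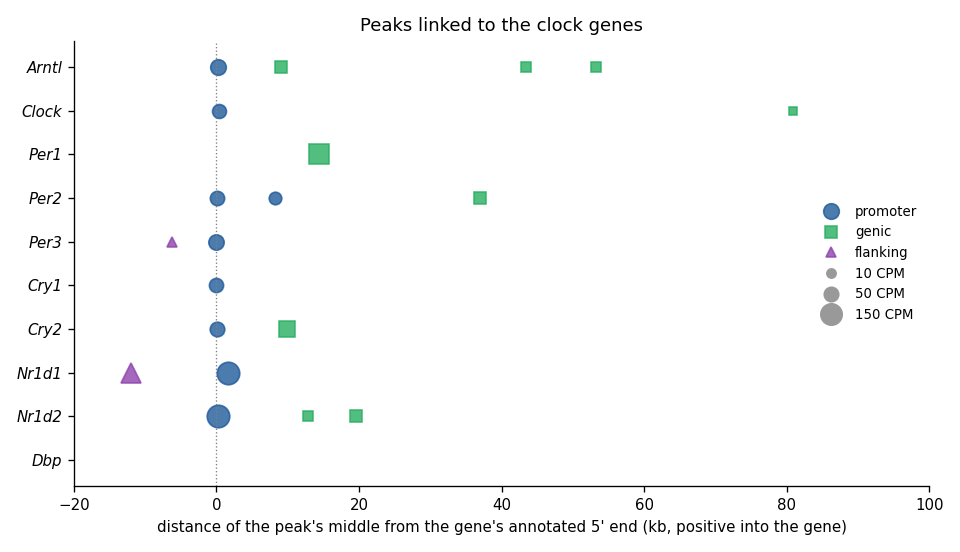
Peaks linked to each clock gene by the distance of their middle from the gene's annotated 5′ end (kb, positive into the gene), with marker size set by the mean CPM over the groups and shape by class. Per1 has a single peak near its 3′ end and Dbp has none, while the other 8 genes each have a peak at a start.

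Several calls depended on 1 control library. LacZ-shRNA replicate 1 was the lowest of the LacZ-shRNA samples in 9 of 10 members. The same held in 3433 of the 4035 windows at or above 51.5 CPM, so this was not particular to the clock genes. That set has no upper limit, and its median was 9.11 CPM per kb, against 15.1 for the members. Without LacZ-shRNA replicate 1, Per1 had a log2 fold change of -0.49 (SE 0.096, 95% interval -0.68 to -0.30, edgeR adjusted p 0.00277). It was the 1 member called, against 0.318% of all windows and 2.68% called lower among those 4035 windows. Members lower at an unadjusted p under 0.05 then numbered 4 (Per1, Per2, Nr1d2 and Dbp), against 4.27% of all windows and 18.5% of those 4035. Leaving out any of the other 5 samples left 0 members called and 0 to 1 lower at an unadjusted p under 0.05. Per2, Dbp and Nr1d2 moved to -0.28, -0.30 and -0.33 without LacZ-shRNA replicate 1, and to -0.026, -0.065 and -0.16 without replicate 3. Cry1 ranged from -0.19 without replicate 1 to -0.019 without replicate 2. The cause of the difference between the LacZ-shRNA replicates was not tested.

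**Figure D4:**
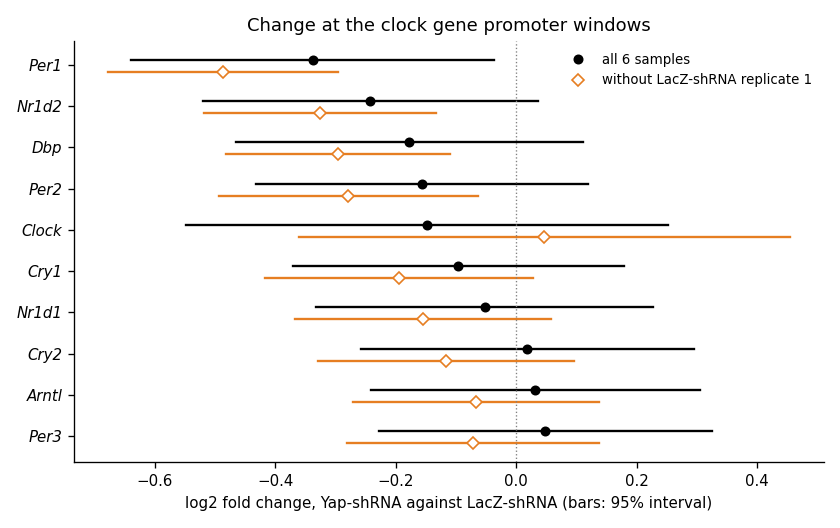
Log2 fold change of each clock gene window, Yap-shRNA against LacZ-shRNA, with 95% intervals from edgeR, over all 6 samples (black) and without LacZ-shRNA replicate 1 (orange). Without that sample 9 of the 10 values move down, Per1 reaches -0.49, and Clock alone moves up.

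The members were split by the time of day at which they are known to peak, with Per1, Per2, Per3, Cry2, Nr1d1, Nr1d2 and Dbp (the E-box arm) set against Arntl, Clock and Cry1 (the RORE arm). The split comes from background knowledge and not from the motif search, in which Arntl alone of the RORE arm held a RORE, Cry1 held both E-box forms, and Per3 and Dbp held neither E-box form. The difference of their mean log2 CPM was 1.25, 1.63 and 1.58 in LacZ-shRNA and 1.49, 1.38 and 1.39 in Yap-shRNA. The Yap-shRNA samples lay within the LacZ-shRNA range, and the means differed by -0.067. Without Clock the difference was 0.538, 0.605 and 0.618 in LacZ-shRNA and 0.541, 0.504 and 0.437 in Yap-shRNA, which again overlapped.

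Other genes of the clock were read from a list of 23 that covers paralogs of the activators, ROR receptors, repressors, kinases and ubiquitin ligases. Of these 0 passed the test, 3 were lower and 0 higher at an unadjusted edgeR p under 0.05, against 0.0223%, 3.01% and 1.9% of all windows. The median log2 fold change was -0.06, against -0.014 over all windows. Nfil3, the repressor that competes with DBP for D-boxes, held 49.2, 64.4 and 76.3 CPM in LacZ-shRNA and 44.7, 48.9 and 46.8 CPM in Yap-shRNA. All LacZ-shRNA samples were above all Yap-shRNA samples, with a log2 fold change of -0.44 ± 0.14 (SE, adjusted p 0.946 in edgeR).

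Bhlhe40 (DEC1), which represses at E-boxes, gave -0.39 (SE 0.14) and Hlf, a relative of Dbp, -0.30 (SE 0.14), both with an edgeR adjusted p of 0.946 and overlapping groups. The most open windows of the list were those of Nfil3 (27.5 CPM per kb) and Prkaa2, a catalytic subunit of AMP-activated kinase (25.1 CPM per kb, log2 fold change -0.11). Groups were apart in Nfil3 and, with Yap-shRNA above, in Btrc. Such a gap was seen in 4.79% of all windows with LacZ-shRNA above and in 5.31% with Yap-shRNA above. Btrc was named after its values were seen.

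Clock outputs in muscle were read from a list of 16. Of these 0 passed, 3 were lower and 0 higher at an unadjusted edgeR p under 0.05, against the same shares of all windows (0.0223%, 3.01% and 1.9%). The median log2 fold change was -0.08, again against -0.014. Tcap, the titin cap protein of the Z-disc, held 92.8, 158 and 147 CPM in LacZ-shRNA and 101, 91.8 and 91.6 CPM in Yap-shRNA. LacZ-shRNA replicates 2 and 3 stood above the other 4 samples, with a log2 fold change of -0.48 ± 0.15 (SE, adjusted p 0.946 in edgeR).

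Nampt, the enzyme that limits NAD+ salvage, gave -0.31 (SE 0.13, edgeR adjusted p 0.946) with all LacZ-shRNA samples above. Such a gap was seen in 1 of the 16 and in 4.79% of all windows. Pdk4, the kinase that shuts off pyruvate dehydrogenase, gave -0.30 (SE 0.15) with overlap. The windows with the highest level were Tcap (56.8 CPM per kb) and Myod1, the myogenic factor (35.5 CPM per kb, log2 fold change -0.05). The windows of Nampt, Bhlhe40, Usp2 and Btrc overlap those of other genes, and their counts are uncertain.

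Without LacZ-shRNA replicate 1, 4 of the 23 and 1 of the 16 passed, against 0.318% of all windows and 2.68% called lower among the 4035 windows read above. Those 4035 windows were cut at 51.5 CPM, the lowest level of the members other than Clock, with no upper limit. Several genes of both lists lie below that level, Bhlhe40 among them, so that share is not level-matched to the lists. Of the 23, those that passed were Nfil3 (-0.61, edgeR adjusted p 0.000458), Hlf (-0.47, adjusted p 0.0119), Usp2, a deubiquitinase (-0.39, adjusted p 0.0248), and Bhlhe40 (-0.47, adjusted p 0.0498). Of the outputs it was Tcap (-0.68, edgeR adjusted p 2.67e-06). With any other sample left out 0 passed in either list. Without LacZ-shRNA replicate 3 the values moved the other way, to -0.26 for Nfil3, -0.19 for Hlf, -0.13 for Usp2 and -0.17 for Pdk4. LacZ-shRNA replicate 1 was the lowest LacZ-shRNA sample in 19 of the 23 and 15 of the 16.

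**Figure D5:**
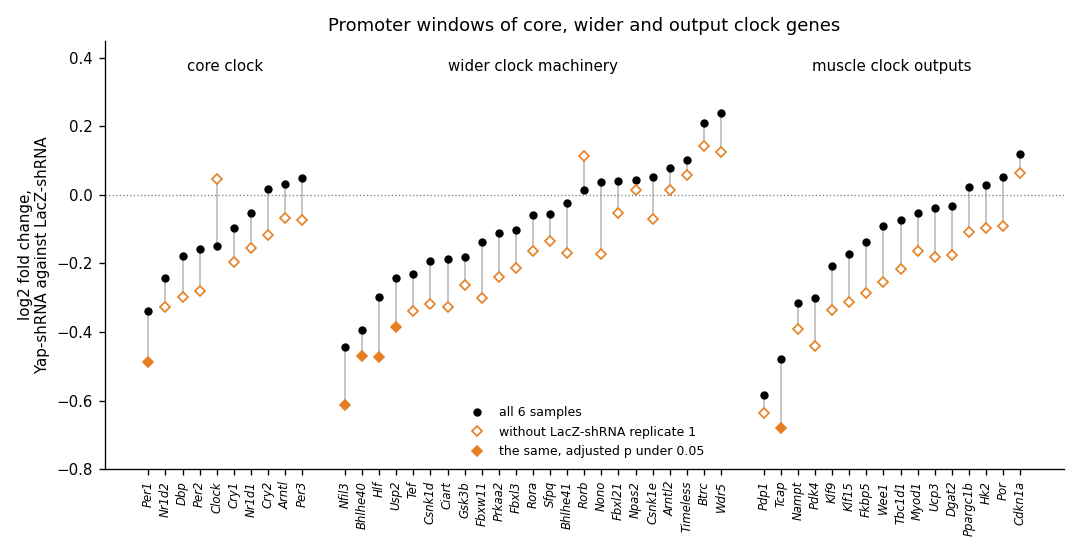
Log2 fold change of each promoter window of the core clock genes, the wider clock list and the output list, over all 6 samples (black) and without LacZ-shRNA replicate 1 (orange, filled where the edgeR adjusted p is under 0.05). Filled points appear only without that sample, at Per1, Nfil3, Bhlhe40, Hlf, Usp2 and Tcap.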

How the data were processed

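The authors mapped paired-end ATAC-seq reads to GRCm38 (Ensembl annotation) with BWA 0.7.17, dropped duplicates (SAMtools 1.8), called peaks (MACS 1.4.2-1) and counted reads with featureCounts 1.5.0. The deposited values are whole-number read counts, not normalized, of 6 samples in 49366 promoter windows and 36097 peaks found in more than 1 sample. The lowest mean count in either table is 10, a filter of the authors. All 49366 window identifiers and symbols matched GENCODE vM21 of the same build. The window extent is not stated in the sources used here, so the 1 kb before and after each transcript start was used, and levels per kb depend on it, and reads of overlapping windows may have been lost. Fragment lengths and the transposase offset cannot be seen in count tables.

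Counts were compared with edgeR 4.0.16 in R 4.3.3 (quasi-likelihood test, TMM factors, no covariate, Benjamini-Hochberg adjustment over each whole table, threshold 0.05), and the scripts were tested on simulated data. CPM values were scaled by TMM. Other settings tried were RLE factors, DESeq2 1.42.0, voom in limma 3.58.1, the likelihood-ratio test, library size alone, a loess offset on abundance (span 0.3), a mean count of at least 50, an adjusted p under 0.01, each sample left out and a replicate block. The windows at or above 51.5 CPM, the score without Clock and the counts at an unadjusted p with a sample left out were added after seeing the data. Named were all 10 members, each member's main promoter peak, linked peaks and listed genes with an unadjusted p under 0.05, the 2 most open windows of each list and the 5 windows nearest to the members' mean profile. One gene of the wider clock list is not reported here and is left out of its counts. Members and lists were chosen with earlier results of these data known. Same-numbered replicates did not deviate together, so they were not paired in the test. Since the vectors went into opposite legs, the pools may still be paired in a way the labels do not give.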

Additional observations from a re-analysis of the deposited data

How the results depend on the processing

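Over the alternatives with all 6 samples, 0 members, 0 linked peaks and 0 genes of either list passed the threshold. Leaving out 1 sample gave 0 to 1 clock windows, 0 to 4 of the wider list, 0 to 1 of the outputs and 0 linked peaks, and the calls came only without LacZ-shRNA replicate 1. Counts of windows lower at an unadjusted p then ranged from 0 to 4, from 1 to 11 and from 1 to 8, the highest without LacZ-shRNA replicate 1. There 4.27% of all windows were lower, and 18.5% of windows at or above 51.5 CPM, a set not matched in level to the members or the lists. Without LacZ-shRNA replicate 1 the log2 fold change turned for Arntl (-0.067), Clock (0.046), Per3 (-0.072) and Cry2 (-0.12). Without Yap-shRNA replicate 3 it turned for Arntl (-0.024) and Per3 (-0.018), and for Nr1d1 without LacZ-shRNA replicate 2 (0.067) or with library size alone (0.016). Promoter peaks in place of the window turned Cry1 (0.038), Cry2 (-0.036) and Nr1d1 (0.015). With a sample left out, Arntl otherwise reached 0.14, Clock -0.24, Per3 0.13, Cry2 0.12 and Nr1d1 -0.16. Myod1 turned with library size alone (0.0087) and on leaving out either replicate 3 of LacZ-shRNA (0.075) or replicate 2 of Yap-shRNA (0.0064), and reached -0.16 with another sample left out. The causes were not tested, and none of these values passed the threshold. Ranks changed for 8 genes without division by length and for 0 to 2 with a sample left out. The Yap-shRNA minus LacZ-shRNA change in the difference between the E-box and RORE arms ranged from -0.19 to 0.0039 with a sample left out.

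With the replicate number as a block, 0 members, 0 linked peaks and 0 listed genes passed, and over all features 13 windows and 207 peaks did, against 11 and 223. The numbers showed no pairing of the samples: correlations of same-numbered deviations ran from -0.17 to 0.17 in windows and from -0.20 to 0.011 in peaks. In windows 3 of 6 and in peaks 1 of 6 samples correlated best with their own number. With 3 samples per group this cannot show that the pools were unpaired. Depth limits Clock most, with 26 reads in its window in LacZ-shRNA replicate 2. Clock also received no adjusted p from DESeq2.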

Other observations

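The windows whose profile over the 6 samples was most like the mean of the 10 clock genes were those of Mycbp2, Pcnx, Mapt, Nos1 and Fam131a. Likeness was the root mean square difference of centred log2 CPM, computed for 32322 windows with a mean count of at least 50 and no overlap with another gene's window. The values were 0.015, 0.017, 0.023, 0.025 and 0.025. Among the clock genes themselves the distance from their own mean ran from 0.055 (Per2) to 0.277 (Clock), and for Per1 it was 0.171. In Mycbp2, an E3 ubiquitin ligase, LacZ-shRNA held 75.3, 87.8 and 88.9 CPM and Yap-shRNA 78.8, 76.2 and 80.3 CPM, with LacZ-shRNA replicate 1 lowest of the 6 samples.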
